A study of Homo sapiens with 60 samples.

Results

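Respiratory complex I is built from 2 genomes, and its genes were followed here as one set in HepG2, a human hepatocellular carcinoma cell line. The set holds every protein-coding gene of the count table whose symbol starts with NDUFA, NDUFB, NDUFC, NDUFS, NDUFV or NDUFAF, together with the 7 mitochondrially encoded genes MT-ND1, MT-ND2, MT-ND3, MT-ND4, MT-ND4L, MT-ND5 and MT-ND6. Read-through genes and pseudogenes were left out. This rule gave 54 genes of 60675 rows, 47 of them nuclear and 7 mitochondrial, and it used no measured value. Sorted by role, they comprise 7 mitochondrial core subunits, 7 nuclear core subunits, 9 accessory subunits of the matrix arm, 20 accessory subunits of the membrane arm, the acyl carrier protein NDUFAB1, 8 NDUFAF assembly factors, and NDUFA4 and NDUFA4L2, which carry the family name but are not counted among complex I subunits today.

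RNA was sequenced from 60 libraries in 20 groups of 3, each group treated for 24 h. The groups were a DMSO vehicle (labelled 0.1%), wortmannin at 10 µM (the positive control, an inhibitor of phosphoinositide 3-kinases), and hot water extracts of 6 herbs at 20, 100 and 500 µg/mL, labelled low, mid and high dose. With the short names used below, the herbs were Poria Cocos (Poria), Atractylodis Rhizoma (Atractylodes), Glycyrrhizae Radix (licorice), Panax Ginseng (ginseng), Angelicae Gigantis Radix (angelica) and Paeoniae Radix (peony). The series' design text gives another vehicle strength than the sample labels. It also allows lower doses for extracts toxic at the top dose, whereas the labels give the same 3 doses for every extract. The doses below are those of the labels. All groups are 1 cell line, and no label says that the 3 replicates of a group came from separate cultures. The p-values thus measure only the spread between these libraries, which may be technical. The titles of all 60 libraries carry the same label, BatchA. Within it, the sample descriptions number the libraries in sets: vehicle stands alone (A1), wortmannin alone (1), Poria and Atractylodes share 2, licorice and ginseng share 3, and angelica and peony share 4. What a set marks is not stated. Set and treatment cannot be told apart in any comparison with vehicle. The comparison of 500 with 20 µg/mL of an extract stays within 1 set.

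Complex I (NADH:ubiquinone oxidoreductase) is the entry point of electrons from NADH into the respiratory chain of the inner mitochondrial membrane. Its matrix arm oxidises NADH on the N module (NDUFV1, NDUFV2, NDUFS1) and passes electrons along iron-sulfur clusters to the Q module (NDUFS3, NDUFS7 and NDUFS8 among its subunits), which reduces ubiquinone. Its membrane arm, built around the proteins that mitochondrial DNA encodes, pumps protons. Accessory subunits surround this core, and NDUFAF proteins help to assemble it without staying in it. Mitochondrial mRNAs are cut from long polycistronic transcripts of both strands of mitochondrial DNA, while each nuclear member has its own promoter. Hepatocytes are rich in mitochondria, and HepG2 cells are widely used to look at mitochondrial effects of compounds.

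Library totals ran from 20852929 to 33353686 counts, and all 54 genes were among the 16093 that passed the filter on low counts. The cells carried the labelled identity: 9 hepatocyte and hepatoma markers summed to 52274 to 73971 CPM (counts scaled to 1 common library total) across libraries, lowest in licorice at 500 µg/mL. PTPRC, the common leukocyte marker, was at 0 counts in every library, and COL1A2, DCN, HBB and CD3E reached at most 3 counts. Of the other fibroblast, blood and endothelial markers, only ACTA2 (32.4 to 77.4 CPM) and LYZ (1284 to 2807 CPM) exceeded 5 CPM. The 6 blood markers, almost all LYZ, summed to 1288 to 1444 CPM in vehicle and to 1380 to 1873 CPM in the licorice, ginseng, angelica and peony groups. They summed to 2035 to 2346 CPM in wortmannin, and to 2082 to 2810 and 2026 to 2552 CPM in Poria at 100 and 500 µg/mL; their part in the results was not tested. Poria 100 µg/mL replicate 1 stood apart from its group more than any other library from its own, with a root mean square deviation of 0.160 on the log2 scale and 48805 CPM from the 7 MT-ND genes. Fewer mitochondria or cells and less RNA per cell cannot be told apart in these bulk libraries.

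Some members share bases with a neighbour or a copy, which bears on how reads can be assigned. MT-ND4L and MT-ND4 lie on 1 transcript in different reading frames, and their annotated sequences share 7 bases. They are in capitals below, at the end of MT-ND4L and the start of MT-ND4 (GENCODE v29 transcripts, mitochondrial genome).
MT-ND4L, last 37 bases: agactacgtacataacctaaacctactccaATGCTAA
MT-ND4, first 37 bases: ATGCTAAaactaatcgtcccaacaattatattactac
MT-ND2 has a long copy on nuclear chromosome 1, the pseudogene MTND2P28 (629640 to 630683, GRCh38), which matches it at 1025 of 1042 aligned bases (98.4%), with up to 266 identical bases in a row. That copy was listed at 225.6 CPM, nearly all of the 227 CPM of mitochondrial complex I copies, against 5540 CPM for MT-ND2 itself, so the split of reads between the pair is uncertain. Copies of nuclear members summed to 1.72 CPM.

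The promoters of 3 assembly factors are shown because their transcripts moved with dose in the Poria and licorice series described below. Each window runs from 250 bases before the start of transcription to 30 after it (RefSeq, GRCh38.p14, written 5′ to 3′ on the gene's strand), and capitals mark a motif found by search.
NDUFAF4 (chr6:96897862-96898141, minus strand): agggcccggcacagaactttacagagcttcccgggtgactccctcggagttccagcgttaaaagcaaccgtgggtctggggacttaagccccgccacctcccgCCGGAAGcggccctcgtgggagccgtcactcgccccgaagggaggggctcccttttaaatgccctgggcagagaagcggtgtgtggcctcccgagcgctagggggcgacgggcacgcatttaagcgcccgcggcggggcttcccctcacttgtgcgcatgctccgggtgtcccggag
NDUFAF5 (chr20:13784778-13785057, plus strand): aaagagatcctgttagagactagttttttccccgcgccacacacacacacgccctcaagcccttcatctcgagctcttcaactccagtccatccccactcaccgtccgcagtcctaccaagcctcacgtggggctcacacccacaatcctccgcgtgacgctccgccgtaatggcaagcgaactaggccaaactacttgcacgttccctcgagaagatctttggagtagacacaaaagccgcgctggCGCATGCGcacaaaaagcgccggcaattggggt
NDUFAF3 (chr3:49020202-49020481, plus strand): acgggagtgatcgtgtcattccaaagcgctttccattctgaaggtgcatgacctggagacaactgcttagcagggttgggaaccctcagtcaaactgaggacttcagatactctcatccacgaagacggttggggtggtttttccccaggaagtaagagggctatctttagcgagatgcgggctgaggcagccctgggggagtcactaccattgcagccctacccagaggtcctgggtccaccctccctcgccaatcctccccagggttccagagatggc
The search used 3 motifs on both strands, CGCATGCG (the centre of the palindromic NRF1 site), CCGGAAG (ETS factors such as GABP) and AAGATGGC (YY1). NRF1, GABP and YY1 are regulators tied to nuclear genes of mitochondrial proteins. NDUFAF4 holds the ETS letters, NDUFAF5 the NRF1 letters, and NDUFAF3 none of the 3 in this window. Of 41 nuclear members with a RefSeq window of 300 bases, 6 (14.6%) held the NRF1 letters, 7 (17.1%) the ETS letters and 8 (19.5%) the YY1 letters. Over all 27305 genes with a window the shares were 2.46%, 12.2% and 3.52%. A match is a description of these letters only. Members with no window in the table included NDUFB5, NDUFB9, NDUFC2, NDUFS5 and NDUFAF6.

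Mitochondrial complex I transcripts were far more abundant per length than nuclear ones. In vehicle the 7 MT-ND genes had a median of 5487 CPM per kilobase, and the 47 nuclear members a median of 45.7. MT-ND4 led with 8498 CPM per kilobase, and MT-ND6, the member encoded on the other DNA strand, was lowest with 807.6. Among nuclear members NDUFS5, a small accessory subunit of the membrane arm, was highest with 171.4 CPM per kilobase, and the assembly factor NDUFAF1 stood at 4.36. NDUFA4L2, a relative of NDUFA4 known to be induced in hypoxia, was the lowest of all at 0.239 CPM per kilobase. Replicates spread more for the mitochondrial genes: the median SD within groups on the log2 scale was 0.214, against 0.0963 for the nuclear members. The spread of group means was of the same order, with a median SD of 0.22 for mitochondrial and 0.0971 for nuclear members.

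Most members, like most tested genes, varied among the 20 groups when all were tested jointly with edgeR's quasi-likelihood test. This test runs across the description sets, so set and treatment cannot be told apart in it. At a Benjamini-Hochberg adjusted p under 0.05 over all tested genes, 38 of 47 nuclear and 7 of 7 mitochondrial members passed, while 75.5% of all tested genes did. The largest F values belonged to NDUFAF4 (8.65), an assembly factor of the Q module, NDUFB10 (8.54), a membrane arm subunit, and NDUFS5 (7.25). Nuclear members that did not pass included NDUFAF1, NDUFA8, NDUFA1, NDUFS4, NDUFAF6, NDUFV3, NDUFA9 and NDUFC1. The sections below take the comparisons one by one; log2 fold changes carry their SE, 3 libraries stand against 3, and adjusted p-values are edgeR's over all tested genes.

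In the licorice, ginseng, angelica and peony groups the median log2 change against vehicle was above 0 for the nuclear members and below 0 for the mitochondrial ones, though few single members passed. Over these 12 groups the median log2 change of the nuclear members lay between 0.06 and 0.21, and that of the mitochondrial members between -0.52 and -0.15, while the median of all tested genes lay between -0.01 and 0.00. Most nuclear members are short, and the median of tested nuclear genes of up to 1000 nt lay between 0.06 and 0.17. Not every nuclear member was higher than vehicle: NDUFV3 was higher in 0 and NDUFS1 in 1 of the 12 groups. Of 564 pairs of a nuclear member and a group, 78 rose (13.8%) and 0 fell, where 7.63% of all tested pairs of a gene and a group were called higher and 8.53% lower. Of 84 mitochondrial pairs 0 rose and 9 fell (10.7%), a share near that of all genes called lower. The 12 comparisons share the 3 vehicle libraries, so they are not independent of one another. Vehicle replicate 3 carried much of this: without it 31 nuclear rises and 1 mitochondrial fall were left, without replicate 1 there were 59 and 11, and without replicate 2 there were 84 and 6. With only the compared groups in each fit the counts were 99 and 42, without the filter on low counts 152 and 71, and DESeq2 called 93 and 9. The sign of the medians depended less on single libraries: over 156 medians recomputed under other settings or without 1 library, 0 nuclear medians and 1 mitochondrial median (0.00, ginseng at 500 µg/mL) lost their sign.

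**Figure D1:**
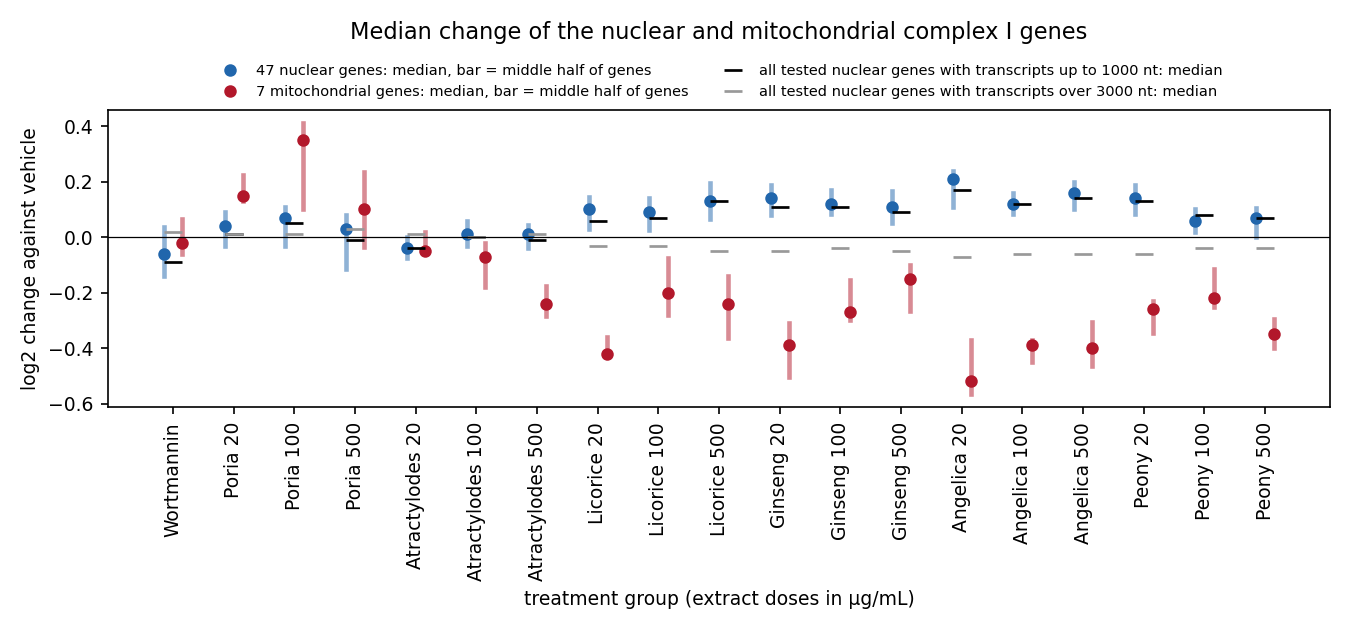
Median log2 change against vehicle of the nuclear and the mitochondrial complex I genes in each of 19 treatment groups, with bars from the lower to the upper quartile, beside the medians of all tested nuclear genes with short (up to 1000 nt) and long (over 3000 nt) transcripts. In the licorice, ginseng, angelica and peony groups every nuclear median is at or above 0.06 and every mitochondrial median is at or below -0.15.

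Read group by group, the share of nuclear members called higher was above that of all tested genes in 9 of the 12 groups, equal to it in 1 and below it in 2. For licorice at 20, 100 and 500 µg/mL, 2, 5 and 10 of 47 nuclear members rose (4.26%, 10.6% and 21.3%), against 5.69%, 8.06% and 16.6% of all tested genes. For ginseng 4, 4 and 3 rose (8.51%, 8.51% and 6.38%), against 6.02%, 3.83% and 4.18%. For angelica 23, 3 and 8 rose (48.9%, 6.38% and 17.0%), against 11.5%, 6.38% and 8.78%, with the widest gap at 20 µg/mL. For peony 9, 3 and 4 rose (19.1%, 6.38% and 8.51%), against 7.03%, 4.41% and 9.09%. The mitochondrial falls at the 3 doses were 1, 0 and 1 of 7 for licorice, 2, 0 and 0 for ginseng, 2, 2 and 1 for angelica and 0, 0 and 0 for peony. All tested genes were called lower at 5.36%, 8.22% and 15.7% for licorice, 7.75%, 4.62% and 5.81% for ginseng, 12.6%, 8.00% and 9.70% for angelica and 8.51%, 5.60% and 10.4% for peony. These counts, small as they are, change by more than 1.5 times when single libraries are left out, over the ranges given in the closing section.

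The summed counts of the 2 genomes show both classes in single libraries. In vehicle the 7 MT-ND genes had 11.6, 11.3 and 15.3 times the summed counts of the 47 nuclear members, a mean ratio of 12.7 ± 2.24 (SD, n = 3). In angelica at 20 µg/mL the ratio was 9.87, 8.28 and 6.93, the lowest group mean (8.36 ± 1.47, SD, n = 3), and all 3 libraries lay below every vehicle library. The other groups wholly below vehicle were ginseng at 20 µg/mL (7.77, 10 and 9.22), angelica at 100 (8.61, 8.91 and 9.13) and 500 µg/mL (8.4, 8.91 and 9.94), and peony at 500 µg/mL (10.4, 8.7 and 10.7). The remaining 14 treatment groups overlapped vehicle, among them all 3 Poria groups, whose mean ratios were 13.8, 14.2 and 14.2. Both terms of the ratio moved: summed nuclear levels were 2495, 2612 and 2374 CPM in vehicle and 2683, 2735 and 3049 CPM in angelica at 20 µg/mL, and summed mitochondrial levels were 28863, 29618 and 36388 CPM and 26483, 22644 and 21132 CPM. By description set, the median ratio was 11.6 in A1, 14 in set 1, 12.6 in set 2, 9.8 in set 3 and 9.44 in set 4, lower in sets 3 and 4 than in the other 3.

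**Figure D2:**
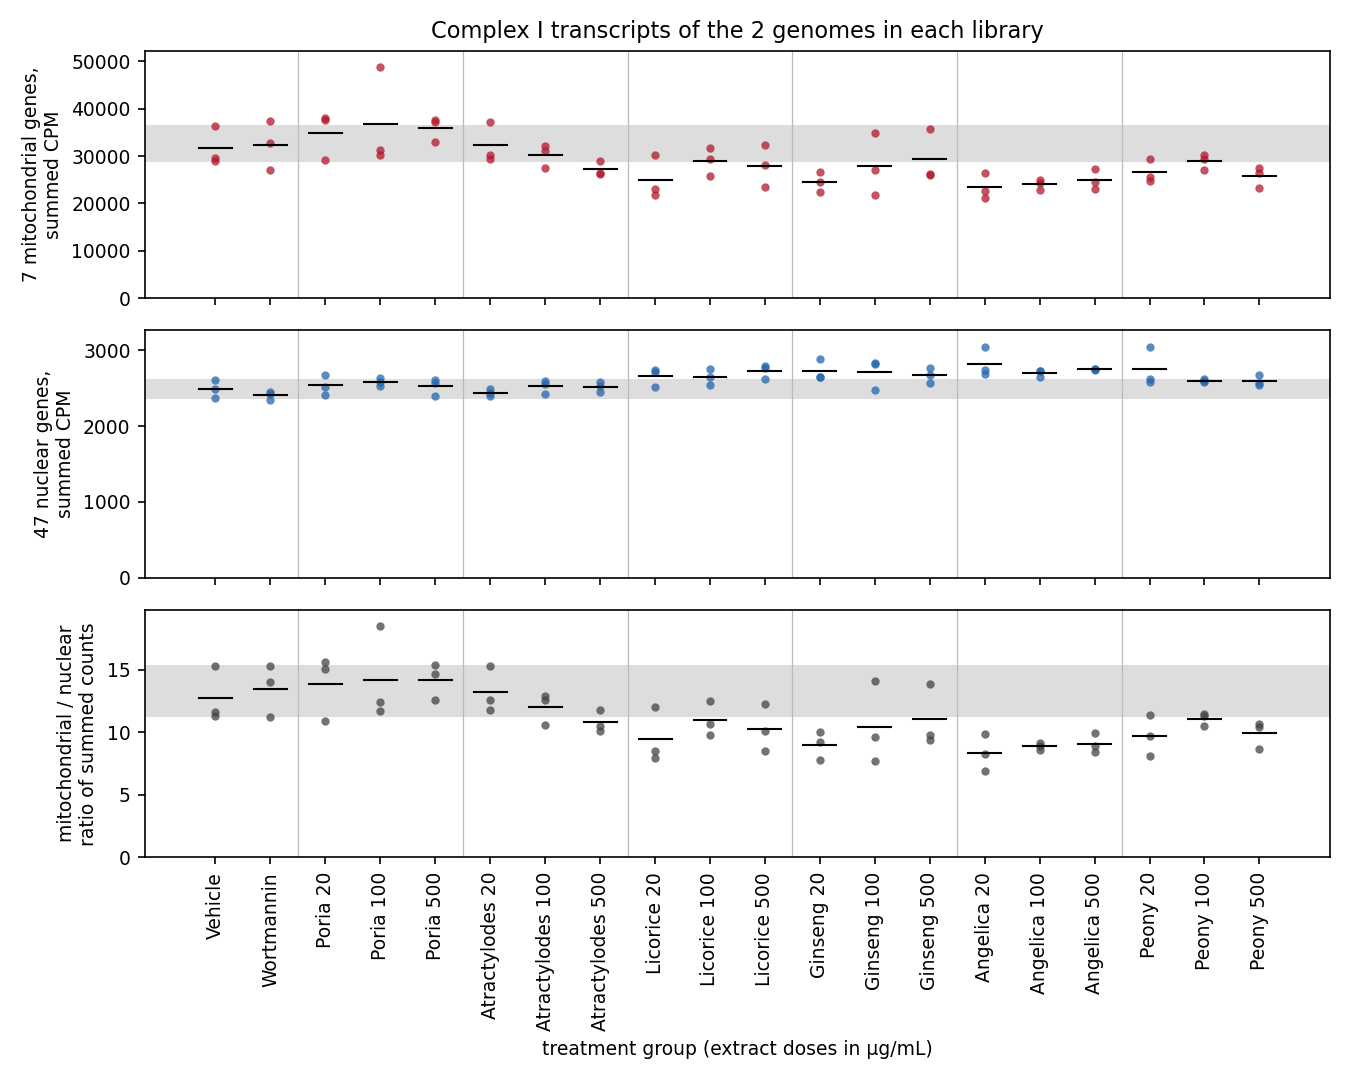
Summed CPM of the 7 mitochondrial genes (top), summed CPM of the 47 nuclear genes (middle) and the ratio of their summed counts (bottom) in each library of the 20 groups. Points are libraries, lines are group means and the grey band is the range of the 3 vehicle libraries. Angelica at 20 µg/mL has the lowest mean ratio, 8.36 against 12.7 in vehicle, and Poria 100 µg/mL replicate 1 has the highest single value, 18.5.

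Of the mitochondrial members, MT-ND5 and MT-ND1 carried the calls. MT-ND5, a proton-pumping subunit at the far end of the membrane arm, had 4050, 4304 and 4653 CPM in the vehicle libraries and 3315, 2908 and 2838 CPM in angelica at 20 µg/mL, with no overlap (log2 change -0.52 ± 0.140, adjusted p = 0.00506), and the call held without any single library. It also fell in licorice at 20 (-0.42 ± 0.139, adjusted p = 0.0422) and 500 µg/mL (-0.38 ± 0.139, adjusted p = 0.0296), ginseng at 20 µg/mL (-0.50 ± 0.140, adjusted p = 0.0121), and angelica at 100 (-0.41 ± 0.139, adjusted p = 0.0404) and 500 µg/mL (-0.45 ± 0.139, adjusted p = 0.0178). MT-ND1, the subunit that joins the membrane arm to the Q module, had 5112, 5181 and 6875 CPM in vehicle, where replicate 3 was the highest. Its level was 3962, 3750 and 3537 CPM in angelica at 20 µg/mL (log2 change -0.61 ± 0.164, adjusted p = 0.00538), and it fell too in ginseng at 20 µg/mL (-0.51 ± 0.164, adjusted p = 0.0298) and angelica at 100 µg/mL (-0.49 ± 0.164, adjusted p = 0.039). Apart from MT-ND5 in angelica at 20 µg/mL, all of these calls were lost without vehicle replicate 3. Beyond that, the licorice calls of MT-ND5 were lost without vehicle replicate 2 or without replicate 2 or 3 of their own group, both ginseng calls without ginseng 20 µg/mL replicate 1, and the calls in angelica at 100 and 500 µg/mL without replicate 1 or 2 of their own group. The 2 calls at 100 µg/mL were lost also without vehicle replicate 2 (MT-ND5) or angelica 100 µg/mL replicate 3 (MT-ND1).

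The other 5 mitochondrial members did not pass in any of these 12 comparisons. MT-ND6 had the lowest single estimate of the 7 and ran from -0.63 to -0.17 over the 12 groups, and its libraries lay wholly below vehicle in 7 of them. In vehicle it had 376.3, 461.2 and 434.5 CPM, and in angelica at 20 µg/mL 293.4, 270.3 and 285.1 CPM (log2 change -0.58 ± 0.266, adjusted p = 0.106), with the largest SE of the 7. MT-ND4L ran from -0.55 to -0.27, MT-ND4 from -0.39 to -0.06, MT-ND3 from -0.43 to 0.04 and MT-ND2 from -0.35 to 0.02. Like the rest, these are membrane arm subunits. MT-ND4 had 10729, 10521 and 13881 CPM in vehicle and 10454, 8769 and 7661 CPM in angelica at 20 µg/mL, without overlap, but the change did not pass (-0.39 ± 0.155, adjusted p = 0.0636). At edgeR's unadjusted p under 0.05, the counts of 7 at 20, 100 and 500 µg/mL were 6, 5 and 4 for angelica and 3, 1 and 1 for licorice. They were 3, 0 and 0 for ginseng and 1, 0 and 2 for peony. The share of all tested genes at this threshold is not given here, so these counts have no background beside them. No MT-ND gene passed in any comparison of 500 with 20 µg/mL, the comparisons that stay within 1 set: edgeR and DESeq2 called 0 of 7 for each extract, with 0 to 2 at an unadjusted p under 0.05. Without the filter on low counts some were called, as the closing section gives.

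**Figure D3:**
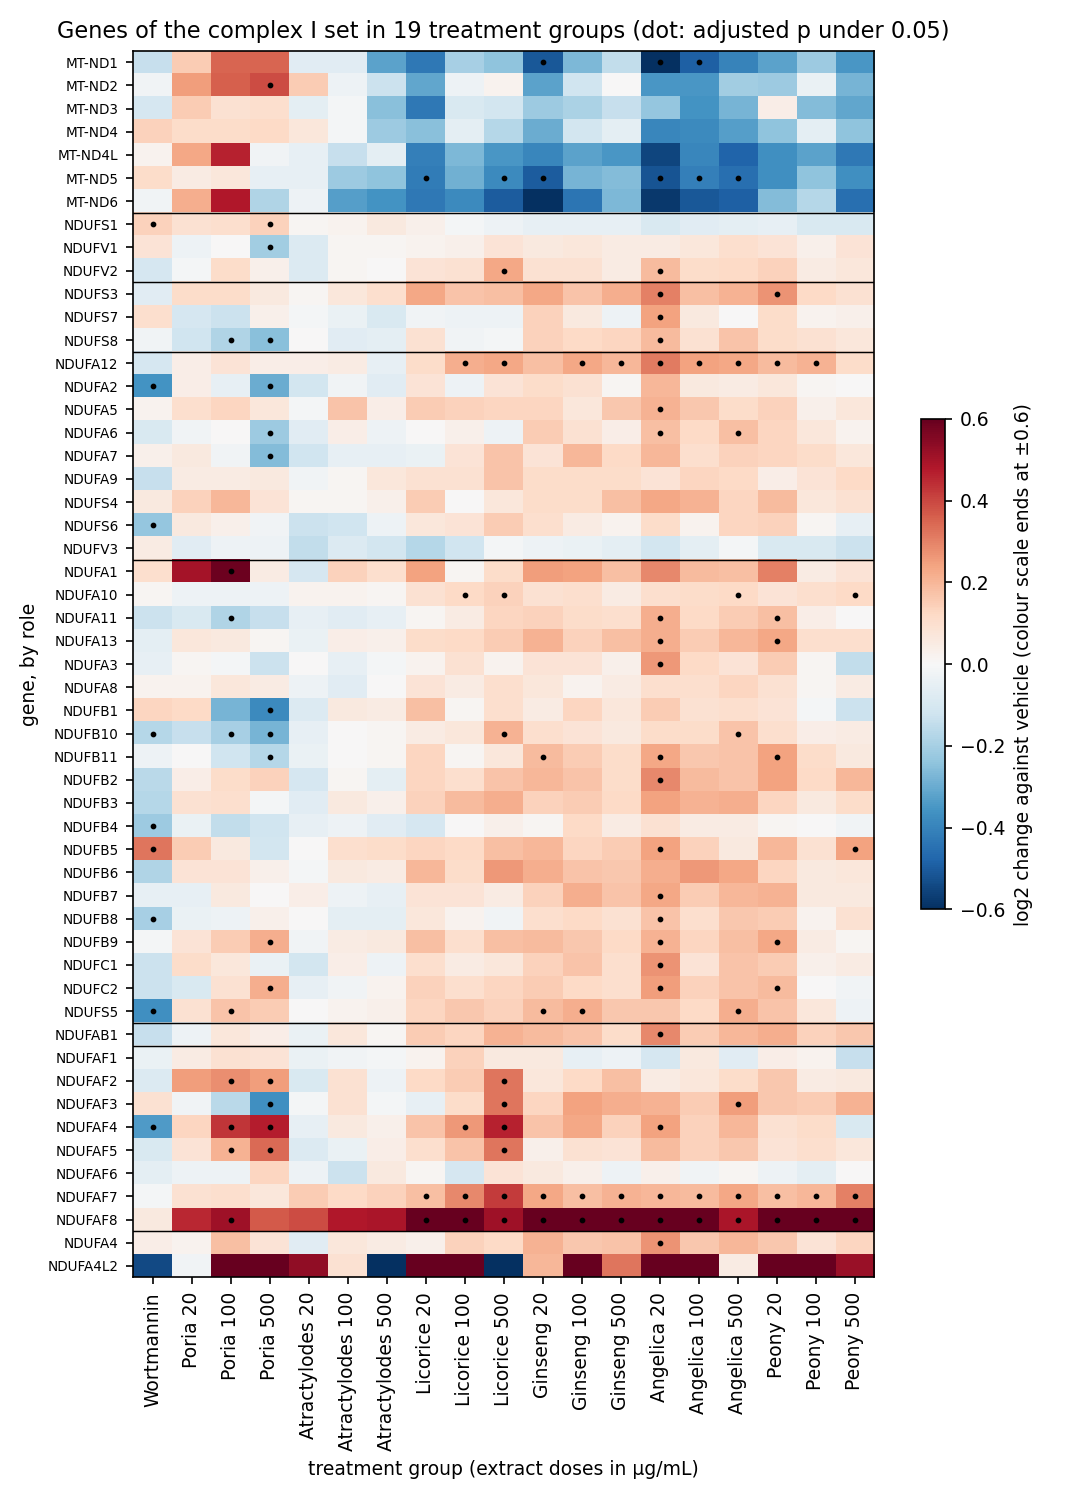
Log2 change against vehicle of complex I genes (rows, by role) in 19 treatment groups (columns), with a dot where the edgeR adjusted p was under 0.05; the colour scale ends at ±0.6. NDUFAF8 and NDUFAF7 carry dots in all 12 licorice, ginseng, angelica and peony columns, and the Atractylodes columns carry none.

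Among nuclear members the assembly factors NDUFAF8 and NDUFAF7 passed in every licorice, ginseng, angelica and peony group. NDUFAF8, a small protein that binds NDUFAF5, had 16.8, 17.5 and 21.4 CPM in vehicle, 30, 31.5 and 40.2 CPM in angelica at 20 µg/mL and 31.2, 37.8 and 32.8 CPM in peony at 20 µg/mL. Its log2 change was 0.87 ± 0.167, adjusted p = 0.000138 in angelica and 0.87 ± 0.167, adjusted p = 0.000292 in peony at that dose, and both calls held without any single library. It rose in all 12 groups, by 0.49 to 0.87, and 10 of the groups lay wholly above vehicle. Outside these groups it passed only in Poria at 100 µg/mL (0.51 ± 0.174, adjusted p = 0.0207), with estimates of 0.37 ± 0.174 in Poria and 0.49 ± 0.171 in Atractylodes at 500 µg/mL and 0.06 ± 0.176 in wortmannin. The Poria call was lost without vehicle replicate 1 or 2 or Poria 100 µg/mL replicate 2 or 3. NDUFAF7, a mitochondrial methyltransferase that acts in assembly, had 22.8, 24.7 and 23.6 CPM in vehicle and 32.4, 32.2 and 30.7 CPM in licorice at 500 µg/mL (log2 change 0.42 ± 0.054, adjusted p = 1.43e-08). It rose in all 12 groups, by 0.18 to 0.42, and every treated library lay above every vehicle library. Its exons overlap CEBPZ and PRKD3 on the opposite strand, and whether the counting used strand is not given in the sources used here. NDUFA12, an accessory subunit of the matrix arm, rose in 9 of the 12 groups by up to 0.31, but no group lay wholly above its vehicle libraries (48.5, 40 and 38.5 CPM). At 500 µg/mL, the NDUFAF8 call was lost in ginseng without vehicle replicate 1 or 2, in licorice without these or licorice 500 µg/mL replicate 2 or 3, and in angelica without these or angelica 500 µg/mL replicate 1 or 3; the NDUFAF7 call was lost in ginseng without ginseng 500 µg/mL replicate 3.

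Angelica at 20 µg/mL was where most nuclear members passed, 23 of 47 upward, with 11.5% of all tested genes called higher. Counted by role, 11 of 20 accessory subunits of the membrane arm rose, as did 3 of 9 of the matrix arm, 3 Q module subunits, 1 of 3 N module subunits, 3 of 8 NDUFAF factors, NDUFAB1 and NDUFA4. Of the Q module, NDUFS3 went from 58.8, 56.9 and 57.4 CPM in vehicle to 68.2, 70.1 and 75.1 CPM (log2 change 0.30 ± 0.083, adjusted p = 0.0062), NDUFS7 rose by 0.24 ± 0.072, adjusted p = 0.0129, and NDUFS8 by 0.19 ± 0.065, adjusted p = 0.0294. All 3 calls were lost without angelica 20 µg/mL replicate 3, those of NDUFS7 and NDUFS8 also without vehicle replicate 3, and that of NDUFS8 without vehicle replicate 1 or angelica replicate 2. NDUFC2, a membrane arm subunit, had 187.9, 181.8 and 168.1 CPM in vehicle and 196.5, 204.4 and 237 CPM in angelica (log2 change 0.25 ± 0.067, adjusted p = 0.00579), and NDUFA12 had 52.1, 46.9 and 58.7 CPM (0.31 ± 0.065, adjusted p = 0.000437). Without angelica 20 µg/mL replicate 3 the count of nuclear members called was 3, and without vehicle replicate 3 it was 6. The calls of NDUFAF8 and NDUFA12 held without any single library, whereas that of NDUFC2 was lost without either of those libraries.

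Outside angelica at 20 µg/mL, the nuclear core subunits were seldom called in these 12 groups. NDUFS1, which holds iron-sulfur clusters of the N module, ran from -0.09 to 0.03 over the 12 groups with 0 calls, and lay wholly below vehicle in 6 of them. NDUFV1, which binds NADH, ran from 0.02 to 0.10, also with 0 calls. NDUFV2 rose in 2 groups, licorice at 500 µg/mL (0.23 ± 0.071, adjusted p = 0.011) and angelica at 20 µg/mL (0.19 ± 0.071, adjusted p = 0.039); each call was lost without vehicle replicate 1 or 3, the first also without licorice 500 µg/mL replicate 2 or 3 and the second without angelica 20 µg/mL replicate 3. NDUFS3 rose in peony at 20 µg/mL as well (0.27 ± 0.084, adjusted p = 0.0211), a call lost without vehicle replicate 2 or 3 or peony 20 µg/mL replicate 2; it shares 721 exon bases with PTPMT1 on the same strand, so its counts are uncertain. At 500 µg/mL of ginseng 3 nuclear members rose (6.38%, against 4.18% of all tested genes). They were NDUFAF8, NDUFAF7 and NDUFA12 (0.63 ± 0.169, 0.21 ± 0.055 and 0.20 ± 0.066). The NDUFA12 call was lost without vehicle replicate 2 or 3 or ginseng 500 µg/mL replicate 2 or 3. At 500 µg/mL of peony 4 rose (8.51%, against 9.09% of all tested genes). Of these, NDUFAF8 (0.73 ± 0.168, adjusted p = 0.00115) and NDUFAF7 (0.30 ± 0.054, adjusted p = 4.64e-05) held without any single library. NDUFB5 (0.24 ± 0.074, adjusted p = 0.0173) was lost without vehicle replicate 3 or peony 500 µg/mL replicate 2. NDUFA10 (0.12 ± 0.041, adjusted p = 0.0329) was lost without vehicle replicate 1 or 3 or peony 500 µg/mL replicate 1, 2 or 3. At 500 µg/mL of angelica 8 rose (17.0%, against 8.78% of all tested genes). Among them were NDUFAF7 (0.23 ± 0.054, adjusted p = 0.00178), NDUFAF3 (0.25 ± 0.085, adjusted p = 0.0342), NDUFS5 (0.22 ± 0.067, adjusted p = 0.0142) and NDUFA6 (0.18 ± 0.059, adjusted p = 0.0274). The count was 2 without vehicle replicate 3 and 4 without angelica 500 µg/mL replicate 2. Of the 4 genes named, only NDUFAF7 held throughout.

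With wortmannin more nuclear members fell than rose, and no mitochondrial member passed in edgeR's filtered fit. Of 47 nuclear members 2 rose and 7 fell (19.1% called), where 46.3% of all tested genes were called, 22.3% higher and 24.0% lower. NDUFS5 had 93.6, 99.7 and 87.4 CPM in vehicle and 72.2, 74.3 and 70.6 CPM with wortmannin, all treated libraries lower (log2 change -0.37 ± 0.068, adjusted p = 9.72e-06). NDUFA2, a matrix arm subunit with a thioredoxin-like fold, fell from 24.5, 30.2 and 27.2 CPM to 19.7, 22.6 and 21.1 CPM (-0.36 ± 0.106, adjusted p = 0.00373), and NDUFAF4 from 19.1, 18.8 and 17.3 CPM to 15, 15.8 and 13 CPM (-0.34 ± 0.094, adjusted p = 0.00253). In the other direction NDUFB5, a single-pass membrane arm subunit, had 47.4, 46.3 and 42.6 CPM in vehicle and 53.1, 58.3 and 58.9 CPM with wortmannin (0.32 ± 0.074, adjusted p = 0.000271), and the core subunit NDUFS1 rose by 0.14 ± 0.041, adjusted p = 0.00492. These 5 calls held without any single library. NDUFS6, NDUFB4, NDUFB8 and NDUFB10, accessory subunits of both arms, fell by smaller amounts (-0.23 ± 0.083, -0.22 ± 0.080, -0.20 ± 0.064 and -0.17 ± 0.060 on the log2 scale), and all 4 were lost without vehicle replicate 2, leaving 5 nuclear calls. NDUFS6, NDUFB4 and NDUFB8 were also lost without wortmannin replicate 1, and NDUFS6, NDUFB4 and NDUFB10 without wortmannin replicate 3. Summed hepatocyte markers were 71060 to 73971 CPM with wortmannin against 64275 to 65836 CPM in vehicle, and fibroblast markers 51.1 to 54.8 against 65.4 to 67.3 CPM; their part was not tested. For the 7 MT-ND genes edgeR and DESeq2 called 0, with 0 at an unadjusted p under 0.05; their log2 changes ran from -0.14 to 0.14.

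With rising doses of Poria some nuclear members rose and others fell, while most did not pass. Against vehicle, 0 of 47 nuclear members passed at 20 µg/mL, 9 at 100 µg/mL (6 up, 3 down) and 15 at 500 µg/mL (6 up, 9 down). All tested genes were called at 3.85%, 30.5% (15.6% higher, 14.9% lower) and 47.6% (24.1% higher, 23.5% lower). The members' 31.9% at the top dose was below this background. NDUFAF4 had 19.1, 18.8 and 17.3 CPM in vehicle, 19.9, 18.6 and 22 CPM at 20, 29.1, 22.3 and 23.3 CPM at 100 and 24.1, 25.2 and 27.5 CPM at 500 µg/mL (log2 change at 500 µg/mL 0.47 ± 0.089, adjusted p = 1.65e-05). All libraries at 500 µg/mL were above all vehicle libraries, and the change at 100 µg/mL was 0.43 ± 0.090, adjusted p = 0.000196. NDUFAF5, a hydroxylase that modifies NDUFS7, went from 16.1, 18.4 and 17.3 CPM in vehicle to 21.7, 20.8 and 23.3 CPM at 500 µg/mL (0.34 ± 0.076, adjusted p = 0.000184), and NDUFS1 rose by 0.14 ± 0.041, adjusted p = 0.00296. NDUFAF2 (0.25 ± 0.103, adjusted p = 0.0387), NDUFC2 (0.22 ± 0.067, adjusted p = 0.00591) and NDUFB9 (0.22 ± 0.073, adjusted p = 0.012) rose as well, but each call was lost without vehicle replicate 3. Those of NDUFAF2 and NDUFB9 were lost without vehicle replicate 1 too, and that of NDUFAF2 without Poria 500 µg/mL replicate 1 or 3.

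The falling members at 500 µg/mL of Poria came from the core, from the accessory subunits of both arms and from the assembly factors. NDUFAF3, the assembly partner of NDUFAF4, had 21.7, 21.4 and 21.4 CPM in vehicle and 14.6, 16.8 and 18.8 CPM at 500 µg/mL, without overlap (log2 change -0.37 ± 0.091, adjusted p = 0.000595). NDUFB10 fell from 74.4, 85.5 and 74.1 CPM to 63.9, 66.6 and 61.8 CPM (-0.28 ± 0.061, adjusted p = 0.000129), and the Q module subunit NDUFS8 from 51.3, 54 and 50.6 CPM to 44.2, 42.3 and 45 CPM (-0.25 ± 0.067, adjusted p = 0.00201). These 3 calls held without any single library, and the partners NDUFAF3 and NDUFAF4 changed in opposite directions at this dose. NDUFAF3 shares 527 exon bases with DALRD3 on the opposite strand, so its counts are uncertain. NDUFB1, a small membrane arm subunit, had 24.5, 32.3 and 27 CPM in vehicle and 19.9, 23.5 and 20.8 CPM at 500 µg/mL (-0.38 ± 0.134, adjusted p = 0.0163). NDUFA2 (-0.30 ± 0.107, adjusted p = 0.0157), NDUFA7 (-0.26 ± 0.087, adjusted p = 0.012) and NDUFV1 (-0.21 ± 0.063, adjusted p = 0.00463) fell too. The calls of NDUFB1, NDUFA2, NDUFA7 and NDUFV1 were lost without vehicle replicate 2, those of the first 3 also without Poria 500 µg/mL replicate 1, and those of NDUFB1 and NDUFA2 without Poria replicate 3. NDUFA6 (-0.22 ± 0.061, adjusted p = 0.00277) and NDUFB11 (-0.17 ± 0.066, adjusted p = 0.0243) complete the 9, the first held without any single library and the second lost without vehicle replicate 2 or Poria 500 µg/mL replicate 1; NDUFB11 overlaps RBM10 and NDUFA7 overlaps RPS28 on the opposite strand. At 100 µg/mL, leaving out replicate 1, the library that stood apart, left 2 of 9 nuclear calls, and leaving out vehicle replicate 1, vehicle replicate 3 or Poria replicate 3 left 4, 5 and 5; NDUFAF4 held in each case.

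MT-ND2 was the 1 mitochondrial member called with Poria. It had 5497, 5388 and 6268 CPM in vehicle and 7457, 6557 and 8425 CPM at 500 µg/mL (log2 change 0.39 ± 0.161, adjusted p = 0.0439), with no overlap. DESeq2 did not call it, edgeR lost it without vehicle replicate 1 or 2 or Poria 500 µg/mL replicate 1 or 3, and without vehicle replicate 3 there were 2 mitochondrial calls. The other 6 ran from -0.18 to 0.35 at this dose. At 20 and 100 µg/mL edgeR and DESeq2 called 0 of 7, with 0 and 3 at an unadjusted p under 0.05, and leaving out single libraries at 100 µg/mL gave 0 to 2 calls (1 downward without Poria replicate 1, 1 or 2 upward without vehicle replicate 3 or Poria replicate 2 or 3).

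Within the Poria set, 500 was compared with 20 µg/mL, a comparison that uses no vehicle library. Of 47 nuclear members 3 rose and 8 fell (23.4%), against 43.5% of all tested genes (22.2% higher, 21.3% lower). The rises were NDUFAF4 (0.34 ± 0.089, adjusted p = 0.00136), NDUFC2 (0.31 ± 0.068, adjusted p = 0.000171) and NDUFAF5 (0.27 ± 0.077, adjusted p = 0.0037). NDUFB1 fell most, from 29.5, 26.3 and 35.9 CPM at 20 to 19.9, 23.5 and 20.8 CPM at 500 µg/mL (-0.50 ± 0.134, adjusted p = 0.00181). NDUFAF3 went from 19.3, 23 and 21.4 CPM to 14.6, 16.8 and 18.8 CPM (-0.35 ± 0.091, adjusted p = 0.00128), and NDUFB5 from 50.9, 46.9 and 53.6 CPM to 39.3, 43.3 and 43.8 CPM (-0.26 ± 0.076, adjusted p = 0.00438). The calls of NDUFAF4, NDUFC2, NDUFB1, NDUFAF3 and NDUFB5 held without any single library. NDUFA2 (-0.34 ± 0.107), NDUFA7 (-0.31 ± 0.087), NDUFA6 (-0.20 ± 0.061), NDUFV1 (-0.18 ± 0.064) and NDUFB11 (-0.17 ± 0.066) fell as well. Without Poria 20 µg/mL replicate 3 the nuclear count was 7, with NDUFA2, NDUFA6, NDUFV1 and NDUFB11 lost. NDUFA7, NDUFV1 and NDUFB11 were lost without Poria 500 µg/mL replicate 1, NDUFB11 also without its replicate 3, NDUFV1 also without Poria 20 µg/mL replicate 1, and NDUFAF5 without Poria 20 µg/mL replicate 2. Summed fibroblast markers, almost all ACTA2, were 62.3 to 64.8 CPM at 20 and 32.6 to 35.2 CPM at 500 µg/mL, and their part was not tested.

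**Figure D4:**
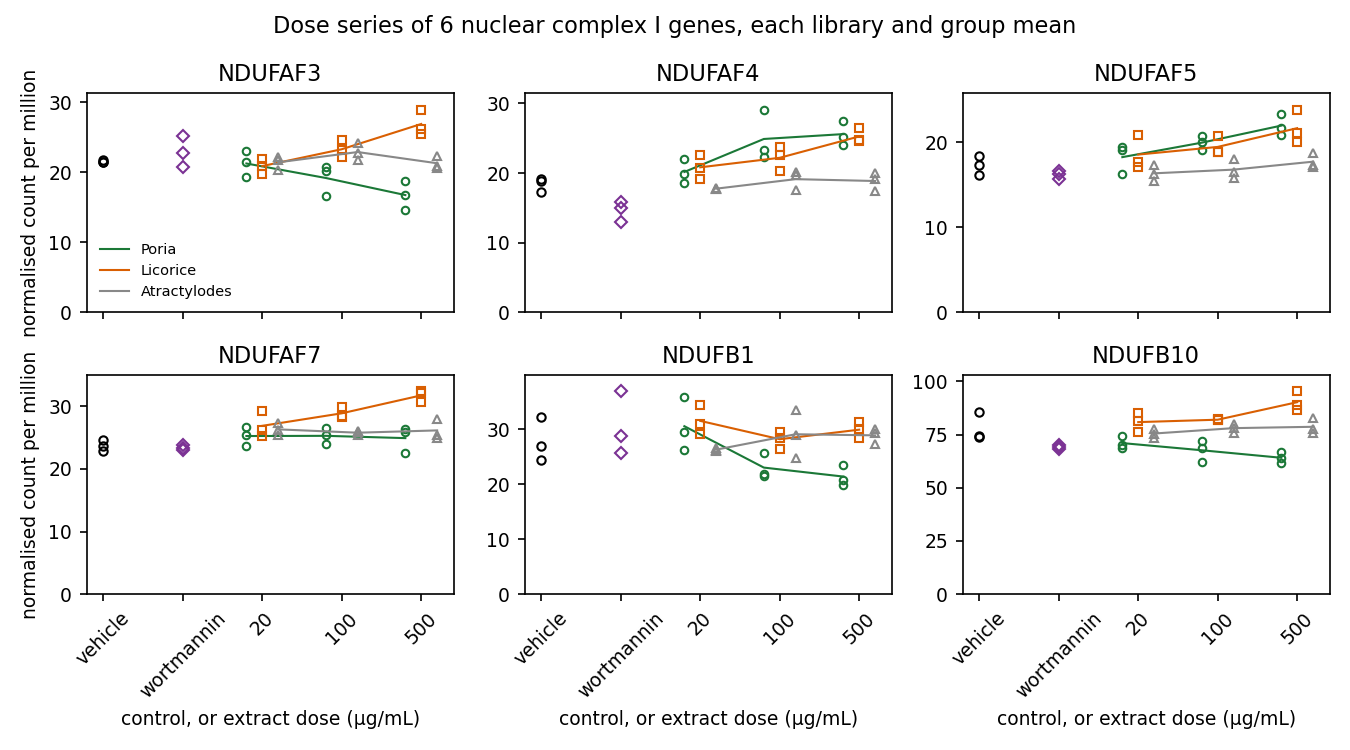
Levels (TMM-scaled CPM) of NDUFAF3, NDUFAF4, NDUFAF5, NDUFAF7, NDUFB1 and NDUFB10 in vehicle, wortmannin and the 3 doses of Poria, licorice and Atractylodes; points are libraries and lines are group means. NDUFAF4 rises with both Poria and licorice, while NDUFAF3 is lower at 500 µg/mL of Poria (16.7 ± 2.07 CPM, SD) and higher at 500 µg/mL of licorice (26.9 ± 1.83 CPM, SD) than in vehicle (21.5 ± 0.213 CPM, SD).

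At 500 µg/mL of licorice 10 nuclear members rose, and 6 of them were assembly factors of the NDUFAF family. Of 8 NDUFAF genes 6 rose and 0 fell, of the other 39 nuclear members 4 rose and 0 fell, and 16.6% of all tested genes were called higher. NDUFAF4 had 19.1, 22.6 and 20.8 CPM at 20, 20.3, 23.7 and 22.6 CPM at 100 and 24.6, 24.7 and 26.5 CPM at 500 µg/mL, where all libraries exceeded those of vehicle (log2 change against vehicle 0.46 ± 0.088, adjusted p = 5.3e-05). NDUFAF3 had 26.2, 28.9 and 25.5 CPM at 500 µg/mL (0.32 ± 0.085, adjusted p = 0.00261), and NDUFAF5 21.1, 23.8 and 20 CPM (0.32 ± 0.075, adjusted p = 0.000633). These 3 and NDUFAF7 kept their calls without any single library. NDUFAF8 (0.51 ± 0.170, adjusted p = 0.0161) and NDUFAF2 (0.32 ± 0.101, adjusted p = 0.012), a chaperone of late assembly, were lost without vehicle replicate 1 or licorice 500 µg/mL replicate 2, and NDUFAF8 also without vehicle replicate 2 or licorice replicate 3, NDUFAF2 without vehicle replicate 3. The other rises were NDUFV2, NDUFA12 (0.23 ± 0.066, adjusted p = 0.00517), NDUFB10 (0.21 ± 0.060, adjusted p = 0.00506) and NDUFA10 (0.14 ± 0.041, adjusted p = 0.0085); NDUFA12 was lost without vehicle replicate 3, and the nuclear count was 6 without licorice 500 µg/mL replicate 2, with NDUFAF8, NDUFAF2, NDUFV2 and NDUFB10 lost. The 2 NDUFAF genes that did not pass were NDUFAF1 (0.06 ± 0.112) and NDUFAF6 (0.08 ± 0.069). In the same libraries 7 of 9 hepatocyte markers fell, with summed levels of 52274 to 55016 CPM against 64275 to 65836 CPM in vehicle; their part was not tested.

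Between 20 and 500 µg/mL of licorice, 4 assembly factors rose and NDUFA4L2 fell, 10.6% of nuclear members against 21.3% of all tested genes (11.1% higher, 10.2% lower). NDUFAF3 went from 19.8, 20.9 and 21.9 CPM at 20 to 26.2, 28.9 and 25.5 CPM at 500 µg/mL (0.36 ± 0.086, adjusted p = 0.00112), and NDUFAF7 from 25.2, 29.3 and 26.2 CPM to 32.4, 32.2 and 30.7 CPM (0.24 ± 0.054, adjusted p = 0.000599); both held without any single library. NDUFAF4 (0.28 ± 0.088, adjusted p = 0.0151) was lost without licorice 20 µg/mL replicate 1 or licorice 500 µg/mL replicate 3, and NDUFAF5 (0.22 ± 0.076, adjusted p = 0.0272) without licorice 20 µg/mL replicate 1 or 3 or licorice 500 µg/mL replicate 2. The count was 3 without licorice 20 µg/mL replicate 1, where 2 mitochondrial members rose, and 8 without licorice 500 µg/mL replicate 3. NDUFA4L2 had 0.346, 0.591 and 0.645 CPM at 20 and 0.0696, 0.0818 and 0.188 CPM at 500 µg/mL (-2.17 ± 0.576, adjusted p = 0.00124), which are a few counts per library, and it shares exon bases with SHMT2 on the opposite strand. NDUFAF3 overlaps DALRD3 on the opposite strand by 527 exon bases, which leaves its counts uncertain.

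With Atractylodes no member passed in the fit of all groups with the filter on low counts. Without that filter, or with only the compared groups in the fit, some members were called, as the closing section gives. At 20, 100 and 500 µg/mL edgeR and DESeq2 called 0 of 47 nuclear and 0 of 7 mitochondrial members against vehicle, with 3, 3 and 2 nuclear and 0 mitochondrial members at an unadjusted p under 0.05. At an adjusted p under 0.05 few of all tested genes were called as well, 1.03%, 1.31% and 0.882%. For 500 against 20 µg/mL edgeR and DESeq2 called 0 members of both classes with Atractylodes, ginseng and angelica. At this adjusted threshold all tested genes were called at 0.0497%, 0.149% and 1.24% (0.541% higher and 0.696% lower). At an unadjusted p under 0.05 there was 1 nuclear member with Atractylodes, 1 nuclear and 2 mitochondrial with ginseng, and 5 nuclear with angelica. The share of all tested genes at an unadjusted p is not given here, so these counts and those against vehicle have no background beside them. The 23 nuclear rises at 20 µg/mL of angelica thus came with no detectable difference between its lowest and highest dose: NDUFAF8 changed by -0.37 ± 0.162, adjusted p = 0.366 and NDUFA12 by -0.08 ± 0.065, adjusted p = 0.751 from 20 to 500 µg/mL. Without angelica 20 µg/mL replicate 1, 1 nuclear member was called lower. With peony, NDUFA3, a small membrane arm subunit that overlaps TFPT on the opposite strand, fell from 27.8, 31.9 and 26.1 CPM at 20 to 23.3, 23.8 and 22.6 CPM at 500 µg/mL (-0.30 ± 0.086, adjusted p = 0.0331; background 3.52%, 1.78% higher and 1.74% lower). That call was lost without any 1 of the 3 peony libraries at 500 µg/mL or peony 20 µg/mL replicate 2, and 3 members fell without peony 20 µg/mL replicate 1.

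The change from 20 to 500 µg/mL was compared between the 2 extracts of each description set. Poria and Atractylodes differed in 8 of 47 nuclear members (17.0%), where 29.5% of all tested genes differed (15.5% higher and 14.0% lower with Poria). NDUFB1 (-0.64 ± 0.187, adjusted p = 0.00711) and NDUFB5 (-0.37 ± 0.107, adjusted p = 0.00566) fell more with Poria, and both calls held without any single library. NDUFB1 had 26.2, 26.6 and 26.1 CPM at 20 and 29.4, 30 and 27.3 CPM at 500 µg/mL of Atractylodes, against the drop with Poria given above. The count was 5 without Atractylodes 20 µg/mL replicate 1 or 2, and the closing section gives the other 6 members. Licorice and ginseng differed in 2 nuclear members (4.26%; background 8.80%), NDUFAF7 and NDUFA4L2, and neither call held without every single library: the count was 0 without licorice 500 µg/mL replicate 1 or 2 or licorice 20 µg/mL replicate 3. Angelica and peony differed in 0 members in edgeR and DESeq2 (background 0.932%), with 2 nuclear members at an unadjusted p under 0.05, and no mitochondrial member differed in any of the 3 comparisons in edgeR or DESeq2, with 0 at an unadjusted p under 0.05.

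Other genes of oxidative phosphorylation and of mitochondrial gene expression were counted beside the complex I set in wortmannin and at 500 µg/mL of Poria and licorice, the comparisons with most calls at the top dose. All tested genes were called at 46.3% (22.3% and 24.0%) with wortmannin, 32.3% (16.6% and 15.7%) with licorice and 47.6% (24.1% and 23.5%) with Poria (in brackets, higher and lower), and no test compares the lists. Mitochondrial ribosomal proteins make the MT-ND proteins and the other products of mitochondrial DNA. With wortmannin 2 of 78 rose and 49 fell (median log2 change -0.22), led by MRPL39 (-0.53 ± 0.069, adjusted p = 8.57e-09) and MRPL11 (-0.52 ± 0.073, adjusted p = 3.61e-08). With licorice 41 of 78 rose and 0 fell (median log2 change 0.17), among them MRPL24 (0.37 ± 0.078, adjusted p = 0.000166) and MRPS31 (0.37 ± 0.068, adjusted p = 2.22e-05); without vehicle replicate 3, 26 rose. With Poria 16 of 78 rose and 13 fell (median log2 change 0.00), with MRPS30 (0.33 ± 0.050, adjusted p = 3.05e-07) among the rises; single left-out libraries gave 10 to 17 rises and 5 to 13 falls, the fewest rises without vehicle replicate 3 and the fewest falls without vehicle replicate 2. Of the genes of mitochondrial transcription, RNA processing and DNA upkeep, with wortmannin 0 of 30 rose and 18 fell (median log2 change -0.20), including TFB1M, an rRNA methyltransferase (-0.52 ± 0.067), and ELAC2, which cuts mitochondrial tRNA ends. With licorice 23 of 30 rose and 0 fell (median log2 change 0.22), including FASTKD1 (0.67 ± 0.066, adjusted p = 1.26e-11) and MTERF3 (0.42 ± 0.064, adjusted p = 6.87e-07), and with Poria 15 of 30 rose and 5 fell (median log2 change 0.15), including FASTKD1 (0.60 ± 0.067, adjusted p = 1.26e-10) and FASTKD5 (0.50 ± 0.039, adjusted p = 2.93e-15). FASTKD1 and FASTKD5 are RNA-binding proteins of mitochondria.

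The other respiratory complexes are read against the same background shares, and not every complex is counted in every comparison. In complex III with licorice, 8 of 15 rose and 0 fell (median log2 change 0.19), led by BCS1L, a chaperone that inserts the Rieske protein (0.34 ± 0.055, adjusted p = 2.36e-06). Single left-out libraries gave 3 to 5 rises, the fewest without vehicle replicate 3. With wortmannin UQCC3 (-0.53 ± 0.091), UQCC2 (-0.36 ± 0.092) and UQCRQ (-0.30 ± 0.102) of complex III fell. The UQCRQ call was lost without vehicle replicate 1 or 2 or wortmannin replicate 2. With Poria UQCC3 (-0.35 ± 0.091) and UQCR10 (-0.27 ± 0.081) fell and CYC1 rose (0.27 ± 0.077). In ATP synthase with licorice, 8 of 19 rose and 0 fell (median log2 change 0.14), with 5 to 9 rises when single libraries were left out, the fewest without vehicle replicate 1. In complex IV the counts were mixed: with wortmannin 2 of 28 rose and 10 fell (median log2 change -0.05), and with Poria 5 of 28 rose and 5 fell (median log2 change -0.04), shares of 42.9% and 35.7% called, below those of all genes. Its Poria calls include the assembly factors COX20 (0.50 ± 0.044, adjusted p = 1.48e-13) and COA3 (-0.46 ± 0.069, adjusted p = 1.82e-07); single left-out libraries gave 5 to 11 falls with wortmannin, the fewest without vehicle replicate 2, and 3 to 7 rises with Poria, the fewest without vehicle replicate 1. In ATP synthase and complex II with Poria, 0 of 19 and 0 of 8 rose while 4 and 3 fell, including ATP5IF1 (-0.49 ± 0.053, adjusted p = 6.74e-11), the inhibitor of ATP hydrolysis, and SDHAF1 (-0.42 ± 0.098, adjusted p = 0.000284), a complex II assembly factor. Of 11 complex I assembly factors outside the NDUFAF family, 5 rose with licorice, among them TMEM126B (0.31 ± 0.072, adjusted p = 0.000639), a part of the membrane arm assembly complex, while 5 fell with wortmannin, and 1 rose and 4 fell with Poria; the wortmannin count went down to 2, and the Poria falls to 1, without single libraries (vehicle replicate 1 and vehicle replicate 1). Among regulators of mitochondrial biogenesis, the coactivator gene PPARGC1A rose with wortmannin (1.24 ± 0.085), Poria (0.51 ± 0.089) and licorice (0.40 ± 0.089), and NRF1 fell in all 3 (-0.53 ± 0.062, -0.29 ± 0.062 and -0.21 ± 0.060, the last lost without licorice 500 µg/mL replicate 2). Other regulators called included PPRC1 with wortmannin (-0.39 ± 0.052), ESRRA with Poria (0.24 ± 0.068) and NFE2L2 with licorice (0.23 ± 0.038). The ESRRA call was lost without Poria 500 µg/mL replicate 2. Counts and medians of the regulators are not given here. The 6 other mitochondrial mRNAs gave 0 calls with wortmannin and licorice in edgeR and 1 with Poria, MT-CO3 (0.29 ± 0.103, lost without vehicle replicate 2 or Poria 500 µg/mL replicate 1).

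Nuclear complex I transcripts are short, with a median mean coding transcript length of 913 nt against 2609 nt for tested coding genes, and short transcripts as a class had shifted medians in the same comparisons. In angelica at 20 µg/mL the 847 tested nuclear genes of up to 1000 nt had a median log2 change of 0.17, and the 5214 genes over 3000 nt one of -0.07. With wortmannin these medians were -0.09 and 0.02. For licorice at 20, 100 and 500 µg/mL the short genes had medians of 0.06, 0.07 and 0.13. The nuclear members had 0.10, 0.09 and 0.13. For ginseng the short genes had 0.11, 0.11 and 0.09 and the members 0.14, 0.12 and 0.11. For angelica the values were 0.17, 0.12 and 0.14 against 0.21, 0.12 and 0.16. For peony they were 0.13, 0.08 and 0.07 against 0.14, 0.06 and 0.07. The 27 nuclear members of up to 1000 nt and the 20 longer ones had medians of 0.21 and 0.20 in angelica at 20 µg/mL, and of -0.09 and 0.00 with wortmannin. The part of transcript length in the members' changes was not tested.

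The 2 classes also deviated in opposite directions between replicates of 1 group, where treatment is the same. After the group mean was taken from each log2 level, the deviations of mitochondrial members over the 60 libraries had a median Pearson correlation of 0.73 with each other, nuclear members one of 0.39, and pairs across the genomes one of -0.26. MT-ND5 followed the other mitochondrial genes most closely (median 0.85) and MT-ND4L least (0.61). The library medians of the 2 classes correlated at -0.44, and at -0.50 without Poria 100 µg/mL replicate 1. The deviations went partly with the replicate number. In replicate 1 the mitochondrial median was 0.18, 0.15 and 0.30 in licorice at 500, 100 and 20 µg/mL and 0.32, 0.34 and -0.08 in ginseng. In angelica it was -0.10, -0.05 and 0.14. The 60 points may thus not be independent of one another. All of these points also share the library total to which both classes are scaled, so the values are a description only.

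**Figure D5:**
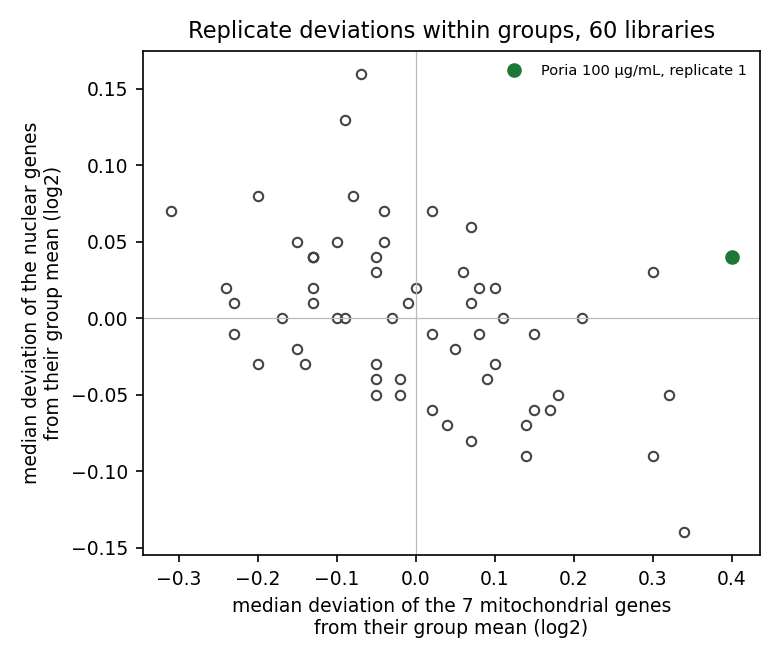
Median deviation from the group mean (log2) of the 7 mitochondrial genes (x axis) and of the nuclear complex I genes (y axis) in each of 60 libraries, with Poria 100 µg/mL replicate 1 marked. Libraries with more mitochondrial transcript than their group tend to have less nuclear complex I transcript, with a correlation of -0.44. Libraries of 1 set with the same replicate number may not be independent points.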

How the data were processed

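Libraries were made from total RNA of HepG2 cells with a directional mRNA kit and read as paired ends of 100 bp, per the labels' protocols. The submitters' processing notes name FastQC 0.11.9, Trim Galore 0.6.5, STAR 2.7.3a and RSEM 1.3.3; the settings, including strand, are not given in the sources used here. The authors deposited RSEM expected counts per Ensembl gene, and these were rounded to whole numbers here; 76.1% of the values were whole as deposited. The 60 columns named in the sample descriptions were used, and 210 other columns of the table were not.

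Gene IDs were matched to GENCODE v29 and RefSeq names, giving 57055 of 60675 rows a symbol. Genes were kept by edgeR's filterByExpr (minimum count 10, minimum total 15), scaled by TMM (factors 0.924 to 1.03) and fitted with edgeR 4.0.16 (glmQLFit, glmQLFTest; limma 3.58.1, R 4.3.3) with 1 mean for each of the 20 groups and 40 residual degrees of freedom, so all groups share the estimate of spread. Benjamini-Hochberg adjustment ran over all 16093 tested genes with a threshold of 0.05. A member is said to rise or fall only past it. Every share of all tested genes is at this adjusted threshold, so counts at an unadjusted p have no background. SEs come from the same fit; levels are TMM-scaled CPM, and per-kilobase values use the mean length of coding transcripts. Summed levels of members are sums of TMM-scaled CPM, and ratios use summed counts. Levels of markers and of pseudogene copies use unscaled library totals. Counts of 3 or fewer per library (0.0899 to 0.144 CPM) are at the limit of detection, for counting error only. DESeq2 1.42.0 was an alternative test, beside another scaling, other filters, fits on the compared groups only, a replicate block and each replicate left out; their effects are in the closing section. The scripts were tested on simulated data.

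Values of 1 nuclear member are not reported here; it enters the counts, medians and sums over members. Named with values are the 7 MT-ND genes and nuclear core subunits, and in the wortmannin, 500 µg/mL and 500-against-20 comparisons up to 6 rises and 6 falls by size; up to 3 called genes stand for another list. NDUFAF8, NDUFAF7, NDUFA12 and NDUFC2 at 20 µg/mL, NDUFAF4 and NDUFB10 at other doses, members beyond the first 6 in a direction, NDUFAF1 and NDUFAF6 in licorice, the Poria, Atractylodes and wortmannin values of NDUFAF8, and the 500-against-20 values of NDUFAF8 and NDUFA12 in angelica were picked with their values in view. The Atractylodes levels of NDUFAF7 were picked in the same way. The members and lists were chosen with earlier results of these data known, so no test was run over a list: lists are given by counts and medians beside those of all tested genes.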

Additional observations from a re-analysis of the deposited data

Results flagged for a closer look

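The change from 20 to 500 µg/mL differed between the 2 extracts of a description set for the genes below, by edgeR's test of the difference itself; each value is the log2 change with the first extract minus that with the second, with its SE. Between Poria and Atractylodes, 6 members fell more with Poria. NDUFB1 differed by -0.64 ± 0.187, adjusted p = 0.00711, with changes of -0.50 ± 0.134 with Poria and 0.13 ± 0.130 with Atractylodes. NDUFB5 differed by -0.37 ± 0.107, adjusted p = 0.00566 (-0.26 ± 0.076 with Poria and 0.11 ± 0.075 with Atractylodes); the calls of these 2 held without any single library. NDUFA7, which helps to stabilise the matrix arm and overlaps RPS28, differed by -0.39 ± 0.123, adjusted p = 0.0124 (-0.31 ± 0.087 with Poria and 0.07 ± 0.086 with Atractylodes), a call lost without Poria 500 µg/mL replicate 1. NDUFV1 differed by -0.27 ± 0.090, adjusted p = 0.0169 (-0.18 ± 0.064 with Poria and 0.09 ± 0.063 with Atractylodes), lost without Atractylodes 20 µg/mL replicate 2. NDUFAF3 differed by -0.34 ± 0.126, adjusted p = 0.0332 (-0.35 ± 0.091 with Poria and -0.01 ± 0.087 with Atractylodes) and NDUFA6 by -0.23 ± 0.086, adjusted p = 0.0354 (-0.20 ± 0.061 with Poria and 0.03 ± 0.060 with Atractylodes); the first was lost without Poria 500 µg/mL replicate 1 or Atractylodes 500 µg/mL replicate 1 or Poria 20 µg/mL replicate 2 or 3 or Atractylodes 20 µg/mL replicate 2, the second without Atractylodes 20 µg/mL replicate 1 or 3 or Poria 500 µg/mL replicate 2 or 3 or Atractylodes 500 µg/mL replicate 2 or 3 or Poria 20 µg/mL replicate 3.

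Higher with Poria was NDUFC2, by 0.24 ± 0.096, adjusted p = 0.0477 (0.31 ± 0.068 with Poria and 0.07 ± 0.068 with Atractylodes), a call lost without 9 of the 12 libraries in turn, all but Poria 20 µg/mL replicate 3, Poria 500 µg/mL replicate 1 and Atractylodes 500 µg/mL replicate 3. NDUFA4L2 differed by 2.14 ± 0.729, adjusted p = 0.0157 (0.73 ± 0.471 with Poria and -1.41 ± 0.557 with Atractylodes), lost without Atractylodes 20 µg/mL replicate 1 or Poria 500 µg/mL replicate 2. Between licorice and ginseng, NDUFAF7 rose more with licorice, by 0.26 ± 0.077, adjusted p = 0.0217 (0.24 ± 0.054 with licorice and -0.02 ± 0.055 with ginseng), lost without licorice 500 µg/mL replicate 1 or 2 or licorice 20 µg/mL replicate 1 or 3 or ginseng 500 µg/mL replicate 1 or ginseng 20 µg/mL replicate 1. NDUFA4L2 differed by -2.28 ± 0.747, adjusted p = 0.0313 (-2.17 ± 0.576 with licorice and 0.11 ± 0.475 with ginseng), lost without licorice 500 µg/mL replicate 1 or 2 or licorice 20 µg/mL replicate 2 or 3 or ginseng 20 µg/mL replicate 2 or 3 or ginseng 500 µg/mL replicate 3. NDUFA4L2 had 0.146, 0.318 and 0.297 CPM at 20 and 0.233, 0.72 and 0.331 CPM at 500 µg/mL of Poria, 0.53, 0.306 and 0.275 and 0.137, 0.0796 and 0.197 CPM with Atractylodes, and 0.48, 0.282 and 0.144 and 0.269, 0.304 and 0.396 CPM with ginseng, so its estimates rest on few counts.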

How the results depend on the processing

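Numbers with no unit are doses in µg/mL against vehicle, and counts are of members called. The shares of all tested genes called under these settings, or without 1 library, are not given here. The counts below thus have no background beside them. DESeq2's size factors and a scaling on nuclear genes alone left all 58 counts within 1.5 times and all 99 named members on their side of the threshold. Without a filter on low counts 43 counts moved; nuclear counts became 1 for Atractylodes 20, Atractylodes 100, Atractylodes 500 and licorice minus ginseng, 2 for angelica 500 against 20, 3 for Poria 20, 5 for licorice 20, 6 for peony 500 against 20, 8 for ginseng 500, 9 for angelica 100, 12 for ginseng 100, 15 for ginseng 20 and peony 20, 16 for wortmannin, 17 for licorice 500, 23 for angelica 500, and mitochondrial counts 1 for angelica 500 against 20, 2 for wortmannin, Atractylodes 100, peony 500 against 20 and angelica minus peony, 3 for Poria 20, Poria 500, licorice 500 against 20 and licorice minus ginseng, 4 for Poria 100, licorice 100, ginseng 500, Poria 500 against 20 and Poria minus Atractylodes, 5 for Atractylodes 500, licorice 500, ginseng 100, peony 100 and ginseng 500 against 20, 6 for peony 20 and Atractylodes 500 against 20, 7 for licorice 20, ginseng 20, angelica 20, angelica 100, angelica 500 and peony 500. With only the compared groups in the fit 31 moved; nuclear counts became 0 for peony 500 against 20, 1 for Atractylodes 20, Atractylodes 500, ginseng 100 and licorice minus ginseng, 2 for peony 20, 3 for Poria 100 and licorice 500 against 20, 5 for ginseng 500, 10 for ginseng 20 and angelica 100, 12 for angelica 20, 14 for wortmannin, 20 for licorice 500, 21 for angelica 500, and mitochondrial counts 1 for Atractylodes 500, ginseng 500, peony 20, Poria 500 against 20 and peony 500 against 20, 2 for licorice 100, peony 100 and Poria minus Atractylodes, 3 for Poria 500, licorice 20 and licorice 500, 5 for ginseng 20, 6 for angelica 20, angelica 500 and peony 500, 7 for angelica 100. With DESeq2's Wald test the nuclear counts became 1 for licorice minus ginseng, 2 for peony 500 against 20, 8 for ginseng 20, and the mitochondrial count 0 for Poria 500. With a minimum mean of 1 CPM nuclear counts became 1 for licorice minus ginseng, 2 for peony 500 against 20, and mitochondrial counts 1 for peony 20 and peony 500. With the replicate block nuclear counts became 2 for peony 500 against 20, 8 for ginseng 20, 14 for angelica 500, 16 for licorice 500, and mitochondrial counts 1 for peony 20 and peony 500, 2 for licorice 20, 4 for angelica 20; the block changed no other count by over 1.5 times, 28 of 60 libraries correlated best with one of their own number, and libraries of 1 set with the same number had a median correlation of 0.142 (lowest -0.334; 59.3% over 0.1), against -0.0583 (20% over 0.1) for those with different numbers. Same-numbered pairs are thus closer on the whole, but no label says what a number marks and not every pair is over 0.1, so the numbers were not taken to pair libraries. Over the 12 licorice, ginseng, angelica and peony groups the block gave 100 nuclear rises and 15 mitochondrial falls, against 78 and 9. No named member reversed; 10 lost their call with only the compared groups, 4 without the filter and 3 in DESeq2. The log2 ratio of the 2 classes kept its sign and moved once, from -0.21 to -0.44 for licorice 100, when medians over members replaced sums. The cause of these shifts was not tested.

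With each replicate left out in turn, 90 of the recomputed counts moved; nuclear counts ran over 5 to 9 for wortmannin and Poria minus Atractylodes, 0 to 1 for Poria 20 and angelica 500 against 20, 2 to 8 for Poria 100, 1 to 6 for licorice 20, 2 to 5 for licorice 100 and angelica 100, 6 to 15 for licorice 500, 2 to 6 for ginseng 20, 0 to 14 for ginseng 100, 1 to 3 for ginseng 500, 3 to 28 for angelica 20, 2 to 10 for angelica 500, 2 to 13 for peony 20, 2 to 4 for peony 500, 7 to 14 for Poria 500 against 20, 3 to 8 for licorice 500 against 20, 0 to 3 for peony 500 against 20 and licorice minus ginseng, and mitochondrial counts over 0 to 2 for Poria 100, Poria 500, ginseng 20, angelica 100 and licorice 500 against 20, 0 to 3 for licorice 20, 0 to 1 for licorice 500, ginseng 100, angelica 500, peony 20 and peony 500, 1 to 3 for angelica 20. Of the recomputed named results 470 stayed on their side of the threshold, 184 lost the call and 0 reversed. A group of 3 libraries limits what can be detected, more so for the mitochondrial members, whose replicates spread more than 2 times as widely on the log2 scale as those of the nuclear ones.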
